A study of Homo sapiens with 6 samples.

Results

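Heparan sulfate is made, trimmed and anchored by a known set of enzymes and carrier proteins, and 40 of their genes were followed in IMR90 cells, a line of human lung fibroblasts, after oncostatin M. The genes are 4 editing enzymes, 25 enzymes of chain synthesis and 11 core proteins. Probe sets that carry exactly 1 gene symbol were used, and each gene was represented by the one whose mean over all 6 arrays was highest, so 38 of the 40 genes were measured, among 18417 genes in all. NDST2, an N-deacetylase/N-sulfotransferase, had no probe set under its symbol, and SDC4, a syndecan, had 1 that also carries a further symbol, so neither was analysed here. The list was drawn up with earlier results of this comparison known, so its counts describe the members and are not independent evidence about the pathway.

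RNA of 3 samples labelled as stimulated with recombinant human oncostatin M at 10 ng/mL, given as a single dose, was compared with RNA of 3 untreated samples of the same line, 1 array per sample. Oncostatin M belongs to the interleukin-6 group of cytokines and acts through JAK kinases and the transcription factor STAT3. Neither the length of treatment nor a vehicle for the controls is given in the sources used here, and all samples come from 1 line. The labels do not say if each replicate was grown apart, so the p-values reflect only how far these samples spread, which can be technical. Levels are RMA values on the log2 scale, differences are oncostatin M minus control on that scale with the standard error (SE) from limma, and adjusted p is Benjamini-Hochberg over all 18417 genes with a threshold of 0.05. The number of arrays limits the precision, and levels of different probe sets cannot be ranked against each other.

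Heparan sulfate is a sugar chain built on a serine of a core protein. XYLT, B4GALT7, B3GALT6 and B3GAT3 enzymes lay down a linkage region, EXT and EXTL enzymes start and extend the chain, and NDST, GLCE and the HS2ST, HS6ST and HS3ST sulfotransferases modify it. After the chain reaches the surface, SULF1 and SULF2 remove 6-O-sulfate groups and heparanase cuts the chain, which changes how growth factors and chemokines bind. Syndecans (SDC) span the membrane, glypicans (GPC) are held by a lipid anchor and perlecan (HSPG2) sits in the matrix, and in lung fibroblasts these chains act as co-receptors and stores for fibroblast growth factors, Wnt proteins and chemokines.

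As a check of the labels, SOCS3, the feedback inhibitor that STAT3 induces, had 9.58, 9.70 and 9.63 in oncostatin M samples, against 7.54, 7.62 and 7.59 in controls. Its groups were far apart. OSMR, a receptor subunit, was higher by 0.82 and STAT3 by 0.45, and STAT3 did not pass without control 1 (adjusted p = 0.0784), control 2 (0.0531) or control 3 (0.0508). All 10 fibroblast markers lay above a bound for silent genes on all 6 arrays. That bound is the percentile of 95 of 428 olfactory receptor and keratin-associated protein genes on the same array, and it lay between 6.66 and 6.88 on oncostatin M arrays and between 6.69 and 6.81 on control arrays. These genes were taken by name and not checked for silence. KRTAP1-4 lay far above the bound, which may thus be set too high. The bound was exceeded on all arrays by 2 of 8 epithelial markers (KRT8 and KRT18) and 2 of 8 endothelial markers (TEK and CLDN5). So it was by 1 of 7 leukocyte markers (CD68) and 6 of 8 smooth muscle and pericyte markers. EPCAM, PECAM1 and PTPRC, picked from these lists after their values were seen, exceeded it on none. Of 8 smooth muscle and pericyte markers, 3 were lower after oncostatin M and none higher (limma, 5 and 0 at an unadjusted p under 0.05), against 1.7% and 1.72% of all genes. The 3 were RGS5 (-0.70), CSPG4 (-0.67) and CNN1 (-0.50). The mean log2 level of that list was 8.64, 8.69 and 8.55 on oncostatin M arrays, against at least 8.89 on each control array. Of the 10 fibroblast markers PDGFRA was higher by 0.39 and PDGFRB differed by -0.37, and the epithelial marker KRT18 was higher by 0.52. Each of these 6 markers did not pass without at least 3 of the 6 arrays, with adjusted p up to 0.159 (CNN1, without control 1). The part of these in the results below was not tested. Oncostatin M 1 differed most from its group, with a limma array weight of 0.226.

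After oncostatin M, 4 of 38 members passed the limma threshold upward and 3 downward, against 1.72% and 1.7% of all genes, 3.42% in all. The counts of each class below are to be read beside the same shares. At an unadjusted p under 0.05, 13 members stood out, against 11.6% of all genes. SULF1, GPC6, SULF2 and HS6ST1 were higher, and XYLT1, HSPG2 and NDST1 lower. The call of HS6ST1 rests on a probe set that may read a pseudogene. The rise of SULF1 was 3.10-fold, and the other 6 changes were at most 1.50-fold. In RNA of whole cultures, a change per cell and a change in the share of cells that express a gene cannot be told apart. With arrays centred on their medians 4 members were higher and 0 lower (limma, 8 lower at an unadjusted p under 0.05), where XYLT1, NDST1 and HSPG2 had adjusted p between 0.0556 and 0.0658 and differences of -0.45, -0.34 and -0.37. Without oncostatin M 2, control 1, control 2 or control 3, 2 members were higher and 0 lower (limma, at least 6 lower at an unadjusted p under 0.05). Without oncostatin M 3 the counts were 3 higher and 1 lower, and without oncostatin M 1 they were 3 and 3. The groups did not overlap for 13 of 38 members, against 18% of all genes, and 6 of these members were higher, against 7.43% of all genes, and 7 lower, against 10.6%. The members' median difference was 0.045 (log2), against 0.001 over all genes, and ran from -0.039 without oncostatin M 1 to 0.055 without control 2.

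**Figure D1:**
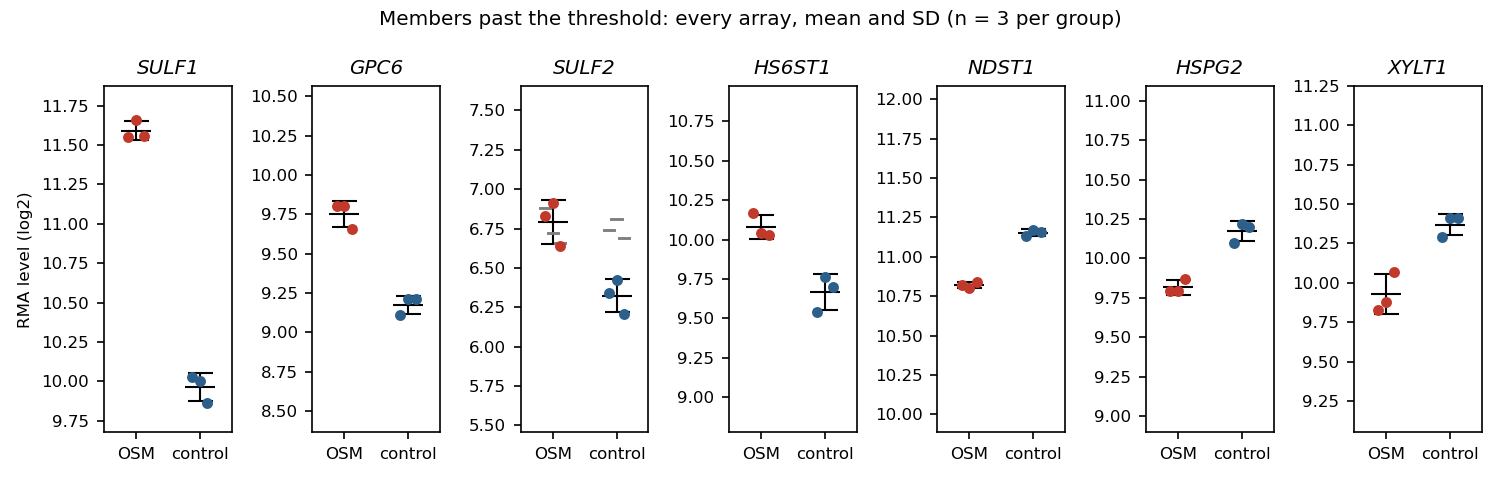
RMA level (log2) of the 7 members past the threshold on every array, with 3 oncostatin M arrays (OSM, red) left of 3 control arrays (blue). Black bars are the mean and SD, grey dashes the silent-gene bound of each array where it falls in the panel, and all panels span the same log2 range. The SULF1 groups lie 1.63 apart. For SULF2 only oncostatin M 2 exceeds the bound of its array, and the controls and the other oncostatin M arrays lie below it.

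The editing enzymes, which act on finished chains, held the largest change. SULF1, a secreted endosulfatase that removes 6-O-sulfate, had levels of 11.55, 11.66 and 11.56 in oncostatin M samples, against 10.03, 10.00 and 9.86 in controls. Each treated array lay more than 1 log2 unit above each control array. The difference was 1.63 (SE 0.08, limma adjusted p = 6.66e-05), and SULF1 ranked 15 among 18417 genes by size of rise. Its difference stayed between 1.58 and 1.67 when any 1 array was left out, with adjusted p at most 0.00167.

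SULF2, the second endosulfatase, had levels of 6.83, 6.91 and 6.64 in oncostatin M samples, against 6.34, 6.42 and 6.21 in controls. The groups did not overlap, and the difference was 0.47 (SE 0.09, limma adjusted p = 0.0353). Only 1 of the 6 arrays, oncostatin M 2, exceeded the silent-gene bound, so the size of this rise is uncertain. It did not pass without oncostatin M 2 (adjusted p = 0.125), control 1 (0.159), control 2 (0.0812) or control 3 (0.147). HPSE, the heparanase that cuts the chain, had 5.32, 5.11 and 5.04 in oncostatin M samples and 5.06, 4.99 and 5.10 in controls, and HPSE2, its relative without that activity, averaged 4.98 ± 0.15 in oncostatin M samples and 4.94 ± 0.03 in controls (SD, n = 3 each). Both lay below the bound on every array, and their groups overlapped. Of the 4 editing enzymes, 2 were therefore higher and none lower (none at an unadjusted p under 0.05), with a median difference of 0.287. Only SULF1 of the 4 exceeded the bound on all arrays, so that median rests on levels near or below it.

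**Figure D2:**
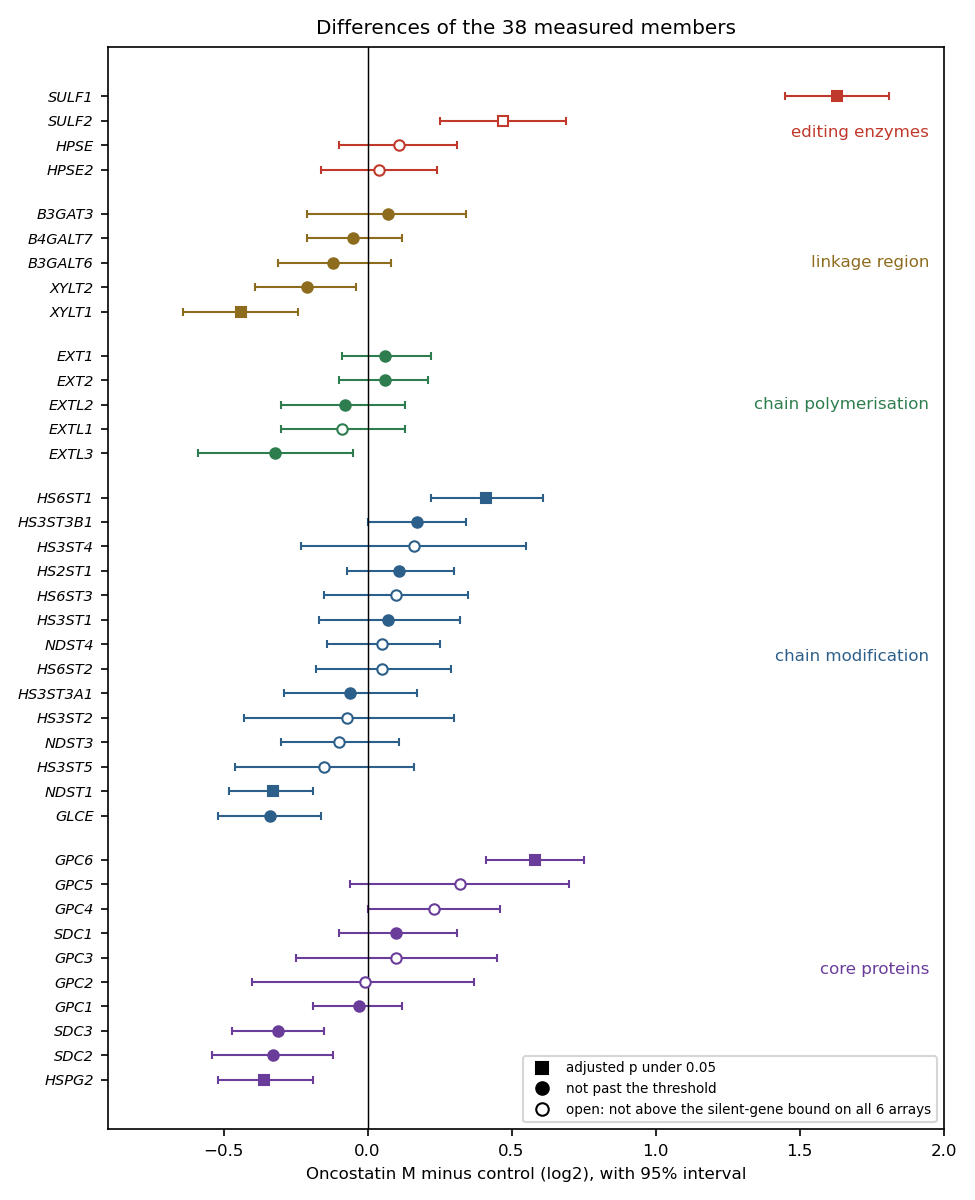
Difference between oncostatin M and control (log2, with its 95% interval from limma) for the 38 measured members, grouped by role and sorted within each group. Squares passed the threshold, and open symbols mark genes that did not exceed the silent-gene bound on all 6 arrays. SULF1 at 1.63 stands far to the right of the other members, which lie between -0.44 and 0.58.

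In the linkage region, XYLT1, which like XYLT2 adds the xylose that starts a chain, was lower. Its levels were 9.83, 9.88 and 10.07 in oncostatin M samples, against 10.29, 10.41 and 10.41 in controls, with no overlap. The difference was -0.44 (SE 0.09, limma adjusted p = 0.0313), or 1.36-fold lower. It did not pass without oncostatin M 2 (adjusted p = 0.116), control 1 (0.0954), control 2 (0.138) or control 3 (0.135). XYLT2, the second xylosyltransferase, had 8.40, 8.44 and 8.48 in oncostatin M samples, against 8.55, 8.74 and 8.66 in controls. Its groups did not overlap either, but the difference of -0.21 did not pass (adjusted p = 0.284, 95% interval -0.39 to -0.04).

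The 3 remaining linkage enzymes had groups that overlapped. B4GALT7, the first galactosyltransferase, differed by -0.05 (95% interval -0.21 to 0.12). B3GALT6, the second galactosyltransferase, differed by -0.12 (-0.31 to 0.08). B3GAT3, which adds the closing glucuronic acid, differed by 0.07 (-0.21 to 0.34). All 5 linkage genes exceeded the silent-gene bound on all arrays, and 1 of 5 was lower and none higher (none at an unadjusted p under 0.05).

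No enzyme of chain polymerisation passed the threshold among 5 measured (limma, 1 at an unadjusted p under 0.05). EXT1 and EXT2 form the polymerase complex. EXT1 had 11.50, 11.59 and 11.59 in oncostatin M samples, against 11.51, 11.47 and 11.50 in controls, and EXT2 had 11.25, 11.23 and 11.23 in oncostatin M samples, against 11.13, 11.18 and 11.24 in controls. Both pairs of groups overlapped, and the 95% intervals of the differences were -0.09 to 0.22 for EXT1 and -0.10 to 0.21 for EXT2.

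EXTL3, which adds the first N-acetylglucosamine and so commits the chain to heparan sulfate, was the member at an unadjusted p under 0.05. It had 8.22, 8.36 and 8.66 in oncostatin M samples, against 8.61, 8.81 and 8.78 in controls. Oncostatin M 3 lay inside the control range, and the difference of -0.32 did not pass (adjusted p = 0.301, 95% interval -0.59 to -0.05). It was -0.22 without oncostatin M 1 and -0.13 with array weights. EXTL2, a related transferase, differed by -0.08 (-0.30 to 0.13), and EXTL1 lay below the bound on every array.

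Among 14 measured modification enzymes, 1 was higher and 1 lower. NDST1, which replaces N-acetyl with N-sulfate groups and so prepares the chain for later sulfation, had 10.82, 10.80 and 10.84 in oncostatin M samples, against 11.13, 11.17 and 11.16 in controls. The replicates of each group lay within a few hundredths of each other, and the groups were far apart relative to that spread. The difference was -0.33 (SE 0.06, limma adjusted p = 0.0304), or 1.26-fold lower. It stayed between -0.34 and -0.32 with any 1 array left out, but it did not pass without oncostatin M 2 (adjusted p = 0.127), oncostatin M 3 (0.0974), control 1 (0.125), control 2 (0.124) or control 3 (0.131). NDST3 and NDST4 lay below the bound on every array.

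GLCE, the epimerase that turns glucuronic into iduronic acid, had 9.63, 9.75 and 9.76 in oncostatin M samples, against 9.97, 10.07 and 10.13 in controls. The groups did not overlap, and the difference of -0.34 lay just outside the threshold (adjusted p = 0.0597, 95% interval -0.52 to -0.16). It passed under 5 of 18 alternatives besides the threshold of 0.1, which are named in the closing section. HS2ST1, the 2-O-sulfotransferase that acts on iduronic acid, had 9.43, 9.59 and 9.58 in oncostatin M samples, against 9.33, 9.45 and 9.49 in controls. Those groups overlapped, with a difference of 0.11 (95% interval -0.07 to 0.30).

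HS6ST1, a 6-O-sulfotransferase that adds the group which SULF1 and SULF2 remove, was higher. It had 10.17, 10.04 and 10.03 in oncostatin M samples, against 9.54, 9.76 and 9.70 in controls. The groups did not overlap, and the difference was 0.41 (SE 0.08, limma adjusted p = 0.038), or 1.33-fold. Its other probe set had 9.98, 9.93 and 9.89 in oncostatin M samples, against 9.57, 9.73 and 9.66 in controls, also without overlap. There the difference was 0.28 (SE 0.07), which did not pass in a fit over 19460 probe sets (adjusted p = 0.11). RefSeq lists a pseudogene of HS6ST1, and probes cannot tell near-identical copies apart, so its value is uncertain. In the platform's numbering the probe set used falls between B3GALT6 and EXTL1, both on chromosome 1, whereas HS6ST1 lies on chromosome 2. The rise called here may therefore belong to the pseudogene. The call was lost with each of the 6 arrays left out, with adjusted p from 0.0506 without oncostatin M 1 to 0.168 without control 1. It was 0.0948 without oncostatin M 2, 0.0911 without oncostatin M 3, 0.081 without control 2 and 0.12 without control 3. HS6ST2 and HS6ST3 lay below the bound on every array.

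Of 6 measured 3-O-sulfotransferases, which add the rare group that some ligands need, none passed the threshold (limma). HS3ST3B1 was the one at an unadjusted p under 0.05, with 8.19, 8.36 and 8.32 in oncostatin M samples, against 8.15, 8.10 and 8.10 in controls. Its groups did not overlap, and the difference was 0.17 (adjusted p = 0.409). HS3ST3A1, a close paralogue whose probes may share targets with it, differed by -0.06 (95% interval -0.29 to 0.17), and its groups overlapped. HS3ST1 exceeded the bound on all arrays and HS3ST2 and HS3ST4 on 5 of 6, with groups that overlapped for each, while HS3ST5 exceeded it on none. Over all 24 measured synthesis enzymes 2 were lower and 1 higher, which was HS6ST1, by a probe set that may read a pseudogene. The median difference was -0.054, but 0.047 without control 2 and -0.001 without oncostatin M 2.

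Core proteins went both ways. GPC6, a glypican, had 9.80, 9.80 and 9.66 in oncostatin M samples, against 9.11, 9.21 and 9.21 in controls. All treated arrays lay above all controls, and the difference was 0.58 (SE 0.07, limma adjusted p = 0.00453), or 1.50-fold. Leaving out any 1 array left it past the threshold, with adjusted p at most 0.0411 (without control 1). HSPG2, the matrix proteoglycan perlecan, had 9.79, 9.79 and 9.87 in oncostatin M samples, against 10.10, 10.22 and 10.20 in controls. Its groups did not overlap, and the difference was -0.36 (SE 0.07, limma adjusted p = 0.0332), or 1.28-fold lower. It did not pass without oncostatin M 2 (adjusted p = 0.134), oncostatin M 3 (0.0789), control 1 (0.0914), control 2 (0.142) or control 3 (0.146).

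The syndecans, which carry chains on a membrane-spanning core, did not pass. SDC3 had 9.45, 9.49 and 9.45 in oncostatin M samples, against 9.76, 9.71 and 9.84 in controls. SDC2 had 9.76, 9.82 and 9.54 in oncostatin M samples, against 10.07, 10.07 and 9.97 in controls. For both, every treated array lay below every control array. The differences were -0.31 for SDC3 (adjusted p = 0.0593, 95% interval -0.47 to -0.15) and -0.33 for SDC2 (adjusted p = 0.124, -0.54 to -0.12). SDC1 had 8.28, 8.07 and 8.18 in oncostatin M samples, against 7.94, 8.17 and 8.11 in controls, and these overlapped.

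Of the other glypicans, GPC1 had groups that overlapped, with 10.39, 10.38 and 10.39 in oncostatin M samples, against 10.36, 10.49 and 10.42 in controls (95% interval of the difference -0.19 to 0.12). GPC4 had 6.90, 7.10 and 6.72 in oncostatin M samples, against 6.69, 6.64 and 6.71 in controls, close to the silent-gene bound, which 3 treated arrays and 1 control array exceeded. Its difference of 0.23 did not pass (adjusted p = 0.437). GPC2, GPC3 and GPC5 lay below the bound on every array. GPC5 had 6.06, 6.19 and 6.59 in oncostatin M samples, against 5.68, 6.19 and 6.02 in controls, and was the member of these whose difference was largest, 0.32 (adjusted p = 0.576), though only 0.16 without oncostatin M 3 and 0.18 without control 1. Of 10 measured core proteins 1 was higher and 1 lower, with a median difference of 0.042, whose sign is not settled: it was -0.048 without oncostatin M 1, -0.019 without control 3, 0.014 without control 1, 0.068 without oncostatin M 2, 0.107 without control 2 and 0.126 without oncostatin M 3.

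Of the 38 measured members, 23 exceeded the silent-gene bound on all 6 arrays, 11 on none and 4 on some, and 6 of the 7 members called were among the 23. For 26 of the 31 members not called, the 95% interval of the difference lay inside 0.5 log2 units either way. The exceptions were EXTL3, GLCE, HS3ST4, SDC2 and GPC5. Of the 17 members not called that exceeded the bound on all arrays, 14 had intervals inside that limit. RMA shrinks differences at low intensity, so a narrow interval near or below the bound says little. Among the 23 genes above the bound, the SD within a group ran from 0.01 to 0.22 in oncostatin M samples (widest for EXTL3) and from 0.02 to 0.21 in controls (widest for B3GAT3).

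**Figure D3:**
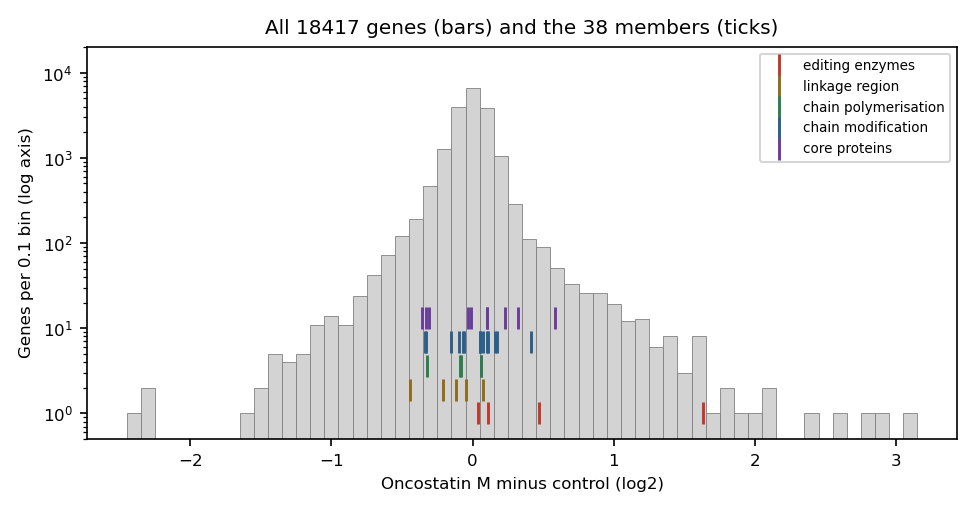
Distribution of the difference between oncostatin M and control (log2) over all 18417 genes as grey bars in bins of 0.1, on a log axis of gene counts, with each member marked by a tick in the colour of its role. Most ticks fall in the central mass, with SULF1 at 1.63 in the sparse right tail.

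**Figure D4:**
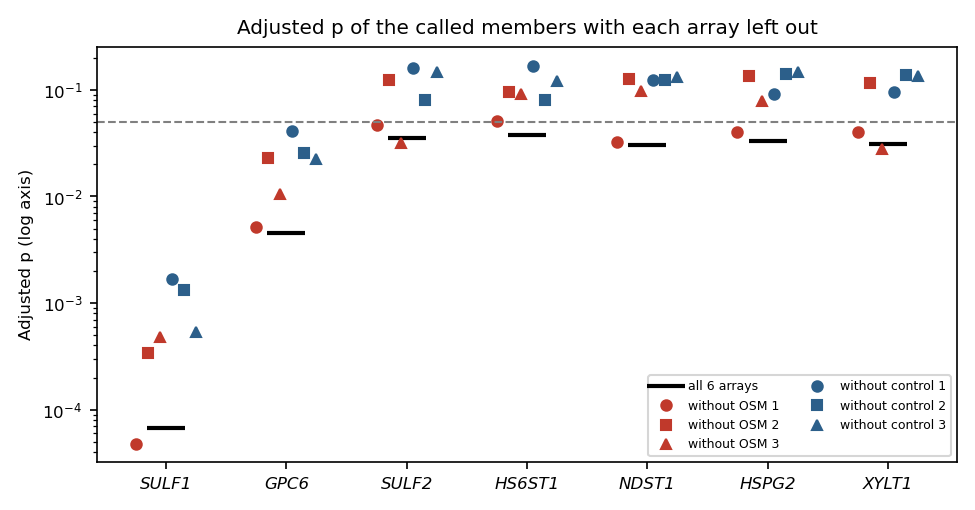
Adjusted p (limma, log axis) of the 7 members past the threshold, with all 6 arrays (black bar) and with each oncostatin M array (red) or control array (blue) left out, and the threshold of 0.05 as a dashed line. All points of SULF1 and GPC6 lie below the line, while the other 5 genes have points above it.

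Promoter sequences of RefSeq (GRCh38.p14) were available for 35 of the 40 genes, but not for SULF1, EXT1, EXTL3, SDC2 and GPC3. SULF1, the member with the largest rise, was therefore not searched. The 250 bases before the start site are shown for called members above the silent-gene bound on all arrays and with 1 listed start. They set the promoters of the genes that rose beside those of the genes that fell. Capitals mark the GC box GGGCGG on either strand (CCGCCC on the reverse), a common site for Sp factors, and overlapping matches are merged. GPC6 (chr13:93226557-93226806, plus strand) and, by the probe set used, HS6ST1 (chr2:128318869-128319118, minus strand) were higher after oncostatin M. That probe set may read the HS6ST1 pseudogene, so the HS6ST1 window may not be that of the transcript that rose. HSPG2 (chr1:21937311-21937560, minus strand), XYLT1 (chr16:17470961-17471210, minus strand) and NDST1 (chr5:150497529-150497778, plus strand) were lower.
GPC6: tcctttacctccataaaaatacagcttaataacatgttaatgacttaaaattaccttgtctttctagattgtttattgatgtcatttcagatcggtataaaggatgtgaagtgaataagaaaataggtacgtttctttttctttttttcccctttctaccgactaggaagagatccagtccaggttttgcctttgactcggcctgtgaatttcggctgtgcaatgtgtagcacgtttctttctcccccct
HS6ST1: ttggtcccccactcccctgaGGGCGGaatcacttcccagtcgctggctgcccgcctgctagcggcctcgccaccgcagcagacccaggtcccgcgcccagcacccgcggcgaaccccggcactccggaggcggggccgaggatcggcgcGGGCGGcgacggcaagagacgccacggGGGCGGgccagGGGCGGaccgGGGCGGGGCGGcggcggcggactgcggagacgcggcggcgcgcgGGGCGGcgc
HSPG2: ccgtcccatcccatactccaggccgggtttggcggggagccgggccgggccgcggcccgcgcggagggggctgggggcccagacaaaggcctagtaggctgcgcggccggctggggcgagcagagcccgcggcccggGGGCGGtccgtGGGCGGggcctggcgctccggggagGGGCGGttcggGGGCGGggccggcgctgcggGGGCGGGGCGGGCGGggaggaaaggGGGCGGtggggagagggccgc
XYLT1: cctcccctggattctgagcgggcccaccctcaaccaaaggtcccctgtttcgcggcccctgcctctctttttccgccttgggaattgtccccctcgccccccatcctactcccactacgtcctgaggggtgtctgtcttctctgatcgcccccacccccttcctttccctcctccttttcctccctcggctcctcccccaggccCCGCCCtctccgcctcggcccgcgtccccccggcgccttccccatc
NDST1: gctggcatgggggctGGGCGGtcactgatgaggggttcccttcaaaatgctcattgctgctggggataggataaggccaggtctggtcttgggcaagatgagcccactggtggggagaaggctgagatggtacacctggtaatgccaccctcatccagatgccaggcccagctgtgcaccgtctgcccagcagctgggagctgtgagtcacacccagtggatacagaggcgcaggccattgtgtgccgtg

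HSPG2, which fell, had 8 matches to the GC box and HS6ST1, whose rise may belong to its pseudogene, had 7, overlapping ones counted. GPC6 had none and a GC content of 37.6%, and XYLT1 and NDST1 had 1 each. The box occurred in 42.6% of all 35116 promoters in the table and in 76.1% of 46 promoters of members, several of which overlap. These shares were not matched for GC content, whose median over all promoters was 58%. The letters TTCNNNGAA, to which STAT proteins can bind and which read the same on both strands, were in none of the 5 windows shown. They were in 6.57% of all promoters and in 3 of 46 of members, namely EXTL2, B3GAT3 and 1 start of NDST2, which was not measured. A match is a description of the letters only.

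The genes that feed and surround the pathway were taken from 6 lists, and of 54 measured genes 2 were higher and 2 lower, beside 1.72% and 1.7% of all genes. Of 13 genes of precursor supply and transport, SLC35D1, which carries UDP-sugars into the secretory pathway, was higher and none was lower (0 at an unadjusted p under 0.05). It had 8.42, 8.72 and 8.51 in oncostatin M samples, against 7.76, 7.70 and 8.03 in controls, a difference of 0.72 (SE 0.11, limma adjusted p = 0.0127). It did not pass without control 1 (adjusted p = 0.0898) or control 2 (0.0678). Of 16 genes of the chondroitin and dermatan sulfate branch, which shares the linkage region, CSGALNACT2 was higher. This enzyme adds N-acetylgalactosamine to start or extend a chondroitin chain. It had 10.04, 10.24 and 9.97 in oncostatin M samples, against 9.65, 9.46 and 9.30 in controls, a difference of 0.62 (SE 0.11, limma adjusted p = 0.0218), and did not pass without oncostatin M 2 (0.0679), control 2 (0.102) or control 3 (0.0829). No gene of that branch was lower (4 at an unadjusted p under 0.05).

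Proteases that shed syndecans and their inhibitor TIMP3 formed a list of 7, of which 2 were lower and none higher (1 at an unadjusted p under 0.05). MMP14, a membrane-bound metalloprotease, fell by 0.39 (adjusted p = 0.0246), and the inhibitor TIMP3 fell by 0.68 (adjusted p = 0.00154, limma), so the 2 that passed have opposite roles. MMP14 did not pass without oncostatin M 2 (0.0847), oncostatin M 3 (0.0914), control 1 (0.0871), control 2 (0.103) or control 3 (0.0829), while TIMP3 passed with any 1 array left out. No gene passed among 8 of lysosomal breakdown, 6 other proteins that can carry heparan sulfate, and 4 for linkage phosphorylation and other steps (limma, 1, 3 and 1 at an unadjusted p under 0.05).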

How the data were processed

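Total RNA of 6 IMR90 samples was hybridised to Affymetrix gene-level arrays, 3 per group by the labels. The authors deposited log2 levels per probe set which, per the submitters' processing notes, came from RMA and Affymetrix Expression Console 1.1, with no settings given. RMA makes arrays alike in distribution and shrinks differences at low intensity, so differences are relative to other genes. Of 33297 probe sets 19460 carry 1 symbol in the platform's gene table, 1754 several and 12083 none, which are unnamed here. They give 18417 genes, of which 769 had a choice of probe sets.

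The groups were compared in limma 3.58.1 under R 4.3.3 (lmFit, eBayes, two-sided, no filter or covariate), and the procedure was tested on simulated data. Figures used matplotlib 3.10.9. All 40 members are named, with up to 4 called genes per other list and SOCS3, OSMR and STAT3 as a check. EPCAM, PECAM1 and PTPRC were singled out after their values were seen, and KRT8, KRT18, TEK, CLDN5 and CD68 because they exceeded the silent-gene bound. Members and lists were chosen with earlier results of these data known. Alternatives changed the normalization, probe sets, filters, array weights, variance prior, arrays included, a block for replicate number, and the threshold (0.01 and 0.1).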

Additional observations from a re-analysis of the deposited data

How the results depend on the processing

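Of 18 alternatives, each changing 1 choice, none reversed a member called, and SULF1 and GPC6 kept their calls under all of them. With all arrays 316 genes were higher and 314 lower over all genes, and 4 members higher and 3 lower. With array weights 667 and 610 genes and 6 members lower were called. At a threshold of 0.01 it was 175 and 112 genes, with 2 members higher and 0 lower, and at 0.1 it was 5 members lower. Filters on genes above the silent bound or above the median level, and a variance prior with trend, each gave 5 members lower. Under the filters the editing enzymes were left with SULF1 (median 1.63), and the median of core proteins was -0.17 over the 6 above the median level. With arrays centred on their medians 0 members were lower (limma, 8 at an unadjusted p under 0.05). With the mean of all probe sets of a gene, or the probe set with the lowest mean, 3 members were higher and 3 lower. There HS6ST1 did not pass (limma adjusted p = 0.0582 and 0.108). GLCE passed with quantile normalization, both filters, the trend and array weights (adjusted p from 0.0187 to 0.0321), and SDC3 with all of these but quantile normalization. With array weights SDC2 (-0.42, adjusted p = 0.0147) and GPC5 (0.59, adjusted p = 0.0399) passed too, and the causes of these shifts were not tested.

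With 1 array left out, between 156 and 400 genes were higher and between 105 and 332 lower, and between 2 and 3 members were higher and between 0 and 3 lower (limma, at least 6 lower at an unadjusted p under 0.05). Without oncostatin M 1 it was 3 and 3. The median of chain synthesis ran from -0.055 to 0.047, positive without control 2, and that of core proteins from -0.048 to 0.126 (-0.015 with array weights, -0.035 with the silent-bound filter), so neither sign is settled.

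The labels do not say if the replicate numbers pair the samples. Same-numbered arrays correlated at 0.064, -0.456 and 0.511 in their deviations from the group means, and oncostatin M 1 correlated best with control 2 (0.543). Deviations from a mean of 3 arrays offset each other, so these values cannot decide if the samples were paired. With the number as a replicate block 3 members were higher and 0 lower (limma, 8 lower at an unadjusted p under 0.05), over all genes 255 and 223, with adjusted p = 0.00172 for SULF1 and 0.0285 for GPC6. Levels near the silent-gene bound limit what can be said of SULF2, GPC4 and the 11 members below it on every array.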
